A study of Mus musculus with 45 samples.

Results

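RNA from the colonic epithelium of mice with any history of high-fat feeding was compared with RNA from mice that had never eaten a high-fat diet. The comparison took 15 of the 45 samples of the series, the RNA sequencing libraries, with 10 from mice with such a history and 5 from mice without it. All were male C57BL/6 mice (C57BL/6J in the study's methods), 6 weeks old when feeding began. The 5 control mice (LF) spent 20 weeks on a low-fat diet (10% fat by energy). The 5 obese mice (HF) spent 20 weeks on a high-fat diet (60% fat by energy) and were on it when the tissue was taken. The 5 formerly obese mice (HFLF) ate the high-fat diet for 15 weeks and the low-fat diet for the last 5 weeks. High-fat history was measured as the mean of the obese and the formerly obese group, with equal weight, minus the control group. The obese and formerly obese mice share earlier high-fat feeding and differ in what they ate last, so a gene that followed history should stand apart from control mice in both groups. The study asked which obesity-associated changes are kept after weight loss. Other samples of the series are 15 bisulfite amplicon libraries and 15 whole-genome bisulfite libraries.

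The colonic epithelium is a single sheet of absorptive colonocytes, mucus-secreting goblet cells and rarer hormone-secreting and tuft cells that is renewed from stem cells at the base of the crypts. Colonocytes burn butyrate and other short-chain fatty acids made by gut bacteria, recover salt and water, and hold bacteria back with mucus, peroxide and antimicrobial proteins. A high-fat diet brings long-chain fatty acids to these cells, which can be stored as triglyceride, built into membranes or oxidised, and which act on nuclear receptors that set the expression of lipid genes.

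Gene counts per library ran from 15230391 to 22762095. Mean totals, in units of 1e6 counts, were 17.4 in the 10 libraries with a high-fat history and 15.8 in the 5 control libraries (exact permutation test over 3003 splits, two-sided, p = 0.111), and the formerly obese group had the highest mean, 18.5. The tissue labelled as colonic epithelium held its defining markers. Of the colonocyte markers 13 of 14 were tested and of the goblet cell markers 15 of 15, with Muc2, the main gel-forming mucin of the colon, at 28775 to 66252 counts in each library. Markers of blood and fat cells were detected in part. The haemoglobin genes Hba-a1, Hba-a2, Hbb-bs and Hbb-bt and the fat cell genes Lep, Retn and Plin1 had 0 counts in all 15 libraries, and no B or plasma cell marker passed the filter on low counts. Reads of the haemoglobin genes may be shared between near-identical copies and go uncounted, so their 0 counts do not show that blood was absent. Alas2, the haem synthesis enzyme of red cell precursors and the 1 erythrocyte marker tested, had 3 to 46 counts, with a mean of 10.4 in control libraries and 21.4 in the others (log2 0.90), and did not pass the test. Of the fat cell markers, Lpl had 350 to 714, Cidec 43 to 207 and Car3 8 to 31 counts in each library. In RNA from whole epithelium, a smaller number of cells of a type and less RNA per cell cannot be told apart. The labels do not say whether mice shared cages or litters or whether libraries shared a preparation day, so p-values measure the spread between these samples.

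Genes followed diet history in both directions in nearly equal numbers. Of 12961 genes tested, 333 were called (2.57%), with 169 higher (1.3%) and 164 lower (1.27%) in mice with a high-fat history. A call needed a fold change over 1.2, a p-value under 0.01 and a Benjamini-Hochberg adjusted p under 0.25 in edgeR, the cutoffs of the study. Most changes were small. The called genes had a median log2 fold change of 0.41 in absolute size, from 0.26 to 3.32, and 63 of them had a mean under 50 counts. An adjusted p under 0.05 was reached by 47 genes and an unadjusted one by 1859. The count fell to 188 without control replicate 2 and rose to 459 without control replicate 4.

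Of the 333 called genes, 332 stood on the same side of control mice in both groups. The exception was Slc16a12, which encodes a monocarboxylate transporter. Genes were called on the mean of both groups against the same 5 control libraries, so this likeness is largely built in. A gene was counted as even across both groups when it was past 1.2-fold in the same direction in obese and in formerly obese mice and was not called between them, and 221 genes met this, 114 higher and 107 lower. Formerly obese and obese mice were compared without any control library, and this comparison called 343 genes (2.65%). Of the genes called for history, 36 were also called there, 25 of them farther from control mice in the formerly obese group and 11 in the obese group. The other 76 were under 1.2-fold in one group. The median difference between the groups was close to 0 in the even genes, at log2 0.01 for the higher and -0.01 for the lower ones, against medians for history of 0.57 and -0.45. A small difference is partly built into how even genes were defined. For 29 of the even genes the whole 95% interval of the difference lay within 1.2-fold, and for the others the interval allows a larger difference. Even genes numbered 111 without control replicate 2. Genes called between the groups numbered 195 or 209 when obese replicate 1 or 2 was left out and 167 when formerly obese replicate 5 was. Those called in both comparisons numbered 60 when control replicate 4 was left out, 22 or 23 when obese replicate 2 or 4 was, and 20 when formerly obese replicate 5 was. Obese mice alone against control mice gave 205 calls (1.58%) and formerly obese mice alone gave 482 (3.72%). Those comparisons use the same 5 control libraries, so likeness between them is partly built in. Of the called genes, 57 share bases with another annotated entry, so that their reads could be split or mixed. Named ones are Lrfn4 (Pcx), Acss2 (Acss2os), Abcc4 (Mir6391), Ccnd2 (9330179D12Rik), Pfkm (Senp1), Acsm3 (Eri2), Slc3a1 (Prepl), Abcg5 (Abcg8), Ace (Gm11651), Pla2g2a (Pla2g5), Slc30a10 (Gm2061), Arsg (Slc16a6), Plk3 (Tctex1d4), C3 (Mir6978) and Slpi (Mir7678). Reads of Lyz1, H2-Q1, Cyp2c65 and Btnl6 may be shared with near-identical relatives, and their values are uncertain for that reason.

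Few genes separated the libraries completely. All 10 libraries with a high-fat history lay above all 5 control libraries for 23 genes (0.177%) and below them for 36 (0.278%). Of the called genes 8 and 16 did so. With a library left out, fewer values have to be cleared, so a rise in such counts is partly built in. The sum of both over all genes, 59 (0.455%), was 139, 192 and 92 when control replicate 3, 4 or 5 was left out, 89 or 120 when obese replicate 1 or 2 was, and 108 when formerly obese replicate 5 was. Named among them in the account that follows are Syk, Mgll, Gda, Dhrs9 and Chordc1 on the higher side and Ephx1, Tmeff1, Abcc4, Acss2, Gpam, Lpcat1 and Cish on the lower side.

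**Figure D1:**
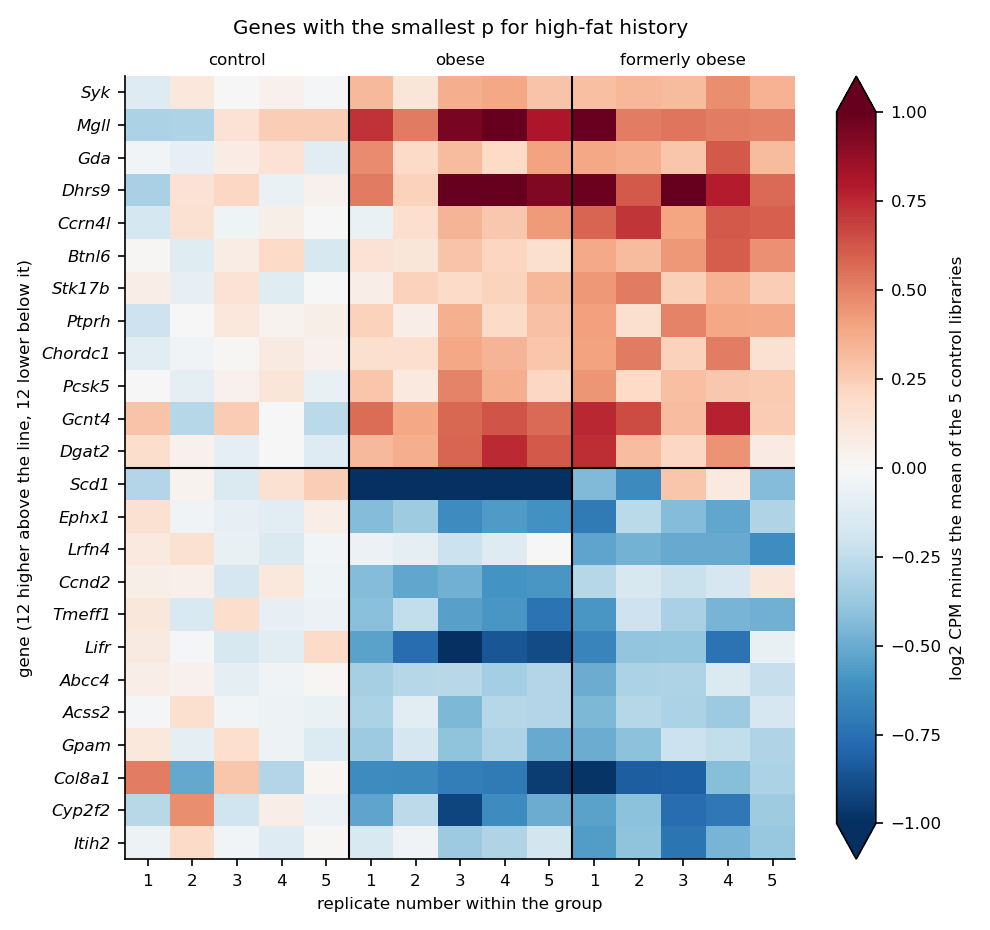
Heat map of the 12 higher and 12 lower genes with the smallest p for high-fat history and a mean of at least 50 counts, one row per gene and one column per library, coloured by log2 CPM (counts per 1e6 counts of the scaled library) minus the mean of the 5 control libraries, with the scale ending at 1 either way. Most rows carry one colour across the obese and formerly obese libraries, while Scd1 is darkest in obese mice and Lrfn4 is darker in formerly obese mice.

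Genes of triglyceride synthesis and lipolysis gave more higher than lower calls. Of 24 tested, 6 were higher and 1 was lower, 29.2% against 2.57% of all genes, and the median over the list was log2 0.05, against -0.00087 over all genes tested. Gene lists here and below were chosen with earlier results of these data known. Their shares of calls are therefore partly built in and serve as description only. Mgll, which encodes the monoacylglycerol lipase that takes the last fatty acid off glycerol (mm10, chromosome 6, 88724412 to 88828360), had 20.6, 20.6, 28.2, 30.3 and 30.3 CPM in the 5 control libraries. Obese libraries held 36.7, 42.1, 44.7, 49.5 and 53.6 CPM, and formerly obese libraries 36.2, 36.4, 36.4, 37.1 and 50.7 CPM. No library with a high-fat history reached down to the control range. The log2 fold change of Mgll for history was 0.70 (SE 0.12, edgeR adjusted p = 0.0307), and formerly obese minus obese mice gave -0.20 (95% interval -0.47 to 0.07). Dgat2, whose product makes triglyceride from diacylglycerol (chromosome 7, 99153663 to 99182713), was at 52.7 to 65.1 CPM in control libraries and at 61, 76.5 and 96.7 CPM as lowest, median and highest of the 10 others, so that the ranges overlapped slightly (edgeR log2 fold change 0.45, SE 0.09, adjusted p = 0.0495). Agpat9, an acyltransferase of glycerol phosphate, rose by log2 0.34, Hsd17b13, a lipid droplet protein, by 0.40, Lipa, the lysosomal acid lipase, by 0.30, and Cidec, a lipid droplet protein of fat and liver cells, by 0.72. Gpam, the mitochondrial enzyme of the first step of glycerolipid synthesis (chromosome 19, 55069734 to 55099447), moved the other way. Control libraries held 52, 53.8, 55.3, 61.5 and 64.3 CPM of Gpam, obese libraries 40.4 to 50.9 and formerly obese libraries 40.6 to 49.2, with no overlap (edgeR log2 fold change -0.34, SE 0.06, adjusted p = 0.0308), and the difference between the groups with a high-fat history was 0.02 (95% interval -0.14 to 0.17). The call of Lipa was lost without control replicate 1 (log2 0.25), and that of Cidec without control replicates 1, 2, 3 or 5, obese replicates 3, 4 or 5 or formerly obese replicates 1 or 3 (log2 0.61 to 0.77) and with counts thinned to the smallest library (log2 0.67).

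Calls among genes that make and desaturate fatty acids were all in the lower direction. Of 16 tested, 3 were lower (18.8%, against 1.27% of all genes) and 0 higher (median log2 -0.08). Scd1, the stearoyl-CoA desaturase (chromosome 19, 44394450 to 44407709), had the smallest p for history but was far from even. Its 5 control libraries lay between 45.5 and 65.9 CPM, and the obese libraries at 17.8, 18.6, 18.7, 18.7 and 22.9 CPM. Formerly obese libraries held 35.8, 41, 41.2, 59.5 and 67.3 CPM, 3 of them below every control library. Its log2 fold change was -1.54 in the obese and -0.19 in the formerly obese group, a difference of 1.34 (95% interval 1.02 to 1.67, edgeR adjusted p = 0.000747), so the history value of -0.87 is a mean of unlike changes, and the call was lost when the 10 libraries were fitted as 1 pooled group (log2 -0.71). Acss2, which turns acetate into acetyl-CoA (chromosome 2, 155518043 to 155562743), was even. Control libraries held 232, 235, 238, 240.4 and 272 CPM of Acss2, obese libraries 178 to 226 and formerly obese libraries 178 to 217, with no overlap (edgeR log2 fold change -0.30, SE 0.06, adjusted p = 0.0307), and the groups with a high-fat history differed by -0.03 (95% interval -0.16 to 0.11). Fads2, the delta-6 desaturase of polyunsaturated fatty acids, fell from 366 ± 46.1 CPM (SD, n = 5) to 304 ± 37 in the obese and 280.0 ± 18.2 in the formerly obese group. Without control replicate 2 the calls of Acss2 (log2 -0.26) and Fads2 (log2 -0.25) were lost through the fold cutoff. Scd2, a second desaturase gene close to Scd1 in sequence, had log2 -0.26 and did not pass the test. Of the 24 cholesterol synthesis genes tested, edgeR called 0 (median log2 -0.03), with 2 at an unadjusted p under 0.05.

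**Figure D2:**
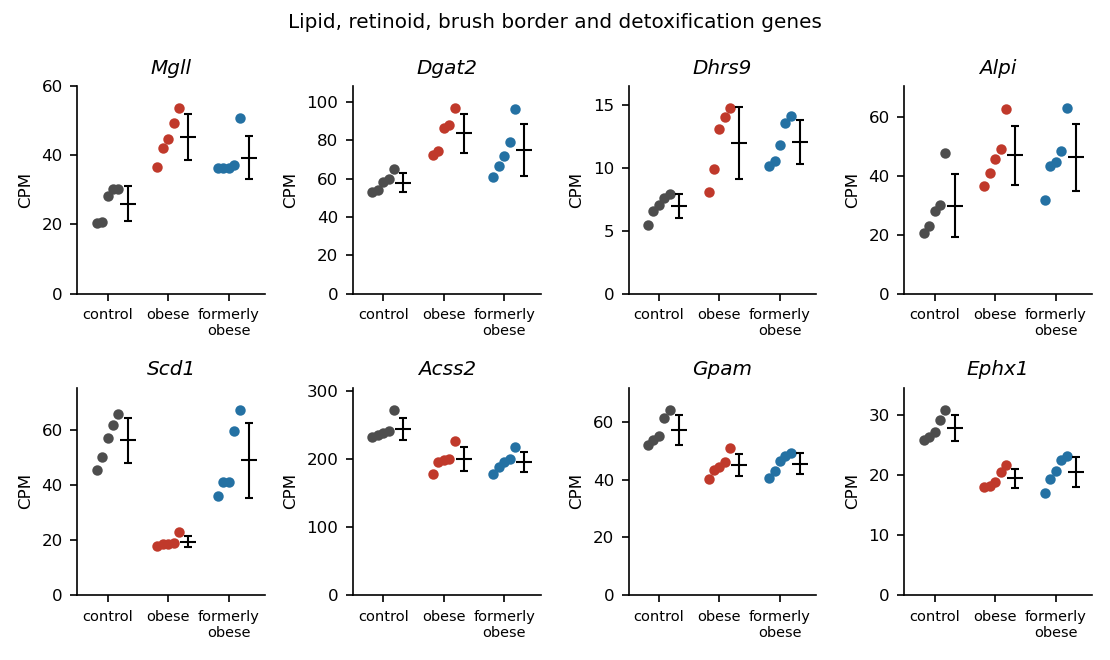
CPM in each library (points) with the group mean and SD (bars) for Mgll, Dgat2, Dhrs9, Alpi, Scd1, Acss2, Gpam and Ephx1 in control, obese and formerly obese mice, 5 libraries each, every axis from 0. Obese and formerly obese libraries lie at like levels in each panel but Scd1, where obese libraries are at 17.8 to 22.9 CPM and formerly obese libraries at 35.8 to 67.3 CPM.

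Fuel genes of other kinds moved singly. Of 13 genes of short-chain fatty acid use, Acss2 and Acsm3, a medium-chain acyl-CoA synthetase of mitochondria, were lower (median log2 -0.06). Acsm3 fell by 0.27 on the log2 scale, from 375 ± 30.1 to 309 ± 17.5 CPM in the obese and 314 ± 40.5 CPM in the formerly obese group (SD, n = 5). Of 32 genes of long-chain fatty acid oxidation, Slc27a2, which imports and activates long-chain fatty acids, and Acaa1b, a peroxisomal thiolase, were higher at log2 0.39 and 0.67 (median log2 0.02). Slc27a2 had 7.62 ± 1.47 CPM in control, 10 ± 1.37 in the obese and 9.96 ± 1.36 in the formerly obese group (SD, n = 5). Among 28 genes of glucose uptake and glycolysis, Pfkm, a phosphofructokinase, and Pdp1, which activates pyruvate dehydrogenase, were lower, and Pfkfb3, which makes an activator of phosphofructokinase, was higher (median log2 -0.01). Pfkm held 22.5 to 28.4 CPM in control libraries and 17.4, 19 and 24.1 CPM as lowest, median and highest of the others (edgeR log2 fold change -0.34, SE 0.07, adjusted p = 0.0467). Phospholipid remodelling gave 2 higher genes and 1 lower gene of 22 (median log2 -0.0026). Lpcat1, a lysophosphatidylcholine acyltransferase, held 13.5 to 15.7 CPM in control libraries, and all 10 others were lower, at 8.68 to 13.3 CPM (edgeR log2 fold change -0.44, SE 0.09, adjusted p = 0.0392). Its relative Lpcat4 rose by log2 0.60, and RNA of Pla2g2a, a gene of the secreted phospholipase family, rose by 0.67. The study had chosen Acss2, Acsm3, Slc27a2, Acaa1b, Pfkm, Pdp1, Lpcat1 and Lpcat4 on these same libraries for their change in obese mice, so their direction there is not independent evidence. Calls were lost for Slc27a2 without control replicates 1 or 2 (log2 0.30 to 0.34), for Pfkfb3 without control replicates 2, 4 or 5 (log2 0.53 to 0.68), for Acaa1b without control replicates 1, 2 or 3 or obese replicates 3 or 4 (log2 0.53 to 0.67), for Acsm3 without control replicates 1 or 2, obese replicate 3 or formerly obese replicates 1 or 3 (log2 -0.25 to -0.23), and for Lpcat4 without control replicates 1, 2, 3 or 5, obese replicates 3 or 5 or formerly obese replicates 1, 3 or 5 (log2 0.48 to 0.62).

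Retinoid genes were called in both directions. Of 21 tested, 3 were higher and 1 was lower (median log2 -0.04). Dhrs9, a dehydrogenase that turns retinol into retinal (chromosome 2, 69380462 to 69403086), had 5.48, 6.59, 7.08, 7.6 and 7.94 CPM in control libraries. It had 8.07, 9.88, 13.1, 14 and 14.7 CPM in obese and 10.2, 10.5, 11.8, 13.6 and 14.1 CPM in formerly obese libraries, all above the controls (edgeR log2 fold change 0.79, SE 0.14, adjusted p = 0.0307). The difference between both groups was 0.01 (95% interval -0.31 to 0.33). Rbp2, an intracellular retinol carrier of the intestine, rose by log2 0.45, from 12.6 ± 3.12 CPM (SD, n = 5). Adh1, an alcohol dehydrogenase that also acts on retinol, fell by 0.38 on the log2 scale, from 1307 ± 199 to 1012 ± 152 CPM in the obese and 999 ± 154 CPM in the formerly obese group. Rbp2 lost its call without control replicates 1 or 3 (log2 0.37 to 0.39) and Adh1 without control replicate 2 (log2 -0.29).

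Detoxification genes showed no shared direction. Of 43 tested, 2 were higher and 4 lower (median log2 0.01). Ephx1, the microsomal epoxide hydrolase (chromosome 1, 180989556 to 181017495), was the most clear-cut. Control libraries held 25.8, 26.3, 27, 29.1 and 30.8 CPM, obese libraries 18, 18.2, 18.8, 20.5 and 21.7, and formerly obese libraries 17, 19.3, 20.6, 22.5 and 23.1, with no overlap (edgeR log2 fold change -0.48, SE 0.07, adjusted p = 0.0167). The groups with a high-fat history differed by 0.08 (95% interval -0.10 to 0.25). Abcc4, an exporter of organic anions and cyclic nucleotides (chromosome 14, 118482692 to 118706219), was tightly held at 20.3 to 22.7 CPM in control libraries and at 15.4 to 19.6 CPM in all 10 others (edgeR log2 fold change -0.30, SE 0.05, adjusted p = 0.0307), and its difference of 0.01 between the groups had a 95% interval of -0.12 to 0.15. Cyp2f2, a cytochrome P450 (chromosome 7, 27119955 to 27133660), fell by 0.57 on the log2 scale, with 46.2 to 77.3 CPM in control libraries and 29.7 to 46.8 CPM in the others. Gstt1, a glutathione transferase, fell by 0.37, Ces2e, an intestinal carboxylesterase, rose by 0.37, and Cyp2c65, a cytochrome P450 of the gut, rose by 0.34, with log2 0.11 in the obese and 0.57 in the formerly obese group. The call of Ces2e was lost without control replicates 1 or 2 (log2 0.32), that of Gstt1 without control replicates 2, 4 or 5, obese replicates 1, 3 or 4 or formerly obese replicates 1, 2 or 4 (log2 -0.38 to -0.29), and that of Cyp2c65 without control replicates 1, 2, 3 or 5, obese replicates 1, 3 or 4 or formerly obese replicates 1, 3 or 5 (log2 0.25 to 0.34). With 1 pooled group, Gstt1 (log2 -0.36) and Cyp2c65 (log2 0.36) lost their calls, and Cyp2c65 also with GC trends removed (log2 0.31).

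Brush border genes, which digest and absorb food in the small intestine and are expressed at lower levels in the colon, gave more higher than lower calls. Of 24 tested, 6 were higher and 2 lower, 33.3% of the list against 2.57% of all genes, with a median of log2 0.20. This list, too, was chosen with earlier results of these data known. Fabp6, the bile acid binding protein of the distal intestine, rose by log2 0.99 (SE 0.24, edgeR adjusted p = 0.065). It held 16.2, 19.9, 22.1, 24.6 and 28.7 CPM in control libraries, 29.3 to 114 in obese and 26.8 to 41.4 in formerly obese libraries, so that 1 formerly obese library overlapped the controls. Slc10a2, the sodium-dependent bile acid importer, held 20.8 to 57.2 CPM in control libraries, 37.2 to 74.3 in obese and 65.1 to 87.2 in formerly obese libraries (edgeR log2 fold change 0.67, SE 0.19, adjusted p = 0.10). Alpi, the intestinal alkaline phosphatase that dephosphorylates bacterial lipopolysaccharide, held 20.6, 23.1, 28, 30.1 and 47.9 CPM in control libraries and 31.7, 45.3 and 63.1 CPM as lowest, median and highest of the others (log2 fold change 0.64, SE 0.18). Apob, the carrier protein of chylomicrons, rose by log2 0.44, from 407 ± 28.7 CPM to 557 ± 60.3 in the obese and 547 ± 110.1 CPM in the formerly obese group (SD, n = 5). Enpep, a peptidase, rose by 0.60 and Sis, sucrase-isomaltase, by 0.55. Going down were Abcg5, which returns sterols to the lumen (log2 -0.40), and Ace, angiotensin-converting enzyme (log2 -0.34). Of 19 amino acid transporters, Slc3a1, a subunit of the cystine and dibasic amino acid transporter, was called, at log2 0.46. The summed CPM of the 13 colonocyte markers ran from 12135.6 to 19310.9 in control, 12879 to 19004.2 in obese and 16366.7 to 23013.6 in formerly obese libraries, edgeR called 0 of them, 7 had an unadjusted p under 0.05, and their part in the change of brush border genes was not tested. Alpi lost its call without control replicates 1 or 2 (log2 0.53 to 0.56), Abcg5 without control replicates 2 or 5 (log2 -0.35 to -0.29), Ace without control replicates 1 or 2 (log2 -0.32 to -0.27), Sis without control replicates 2, 4 or 5, obese replicates 2, 3, 4 or 5 or formerly obese replicates 2 or 5 (log2 0.42 to 0.55), and Slc3a1 without control replicates 1, 2 or 5, obese replicates 3, 4 or 5 or formerly obese replicates 1, 3 or 4 (log2 0.33 to 0.47). Sis also lost its call with replicate numbers fitted as a block (log2 0.56), and Slc3a1 with upper-quartile scaling (log2 0.45) and with thinned counts (log2 0.46).

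Of 4 motifs searched in promoters, the HNF4 site stood in few of any group of genes. HNF4 factors are nuclear receptors of the intestinal epithelium that bind sites such as CAAAGTCCA. In RefSeq promoters (GRCm38.p6, 250 bases before to 50 after the start), read on both strands, this word stood in 6 of the 133 higher genes with a promoter in the table (4.51%), in 0 of 127 lower genes, in 59 of 10355 tested genes (0.570%) and in 150 of 27025 genes of the table (0.555%). The difference between these shares was not tested. The 6 genes are Alpi, Slc3a1 and Cyp2c65 and, chosen after their values were seen, Btnl2, a butyrophilin-like gene (log2 0.74), H2-T3, a class I-like histocompatibility gene (log2 0.38), and Tmcc3 (log2 0.29). Leaving out single libraries ended the call of Slc3a1 in 9 and that of Cyp2c65 in 10 of 15 fits. A match is a description of these letters, not a bound site. The promoters of the genes already described are shown because the word lies close to the start in each, at base -19 in Alpi, -39 in Slc3a1 and -116 in Cyp2c65, counted to its first base on the printed strand, with the word in capitals:
Alpi (chr1:87101557-87101856, minus strand): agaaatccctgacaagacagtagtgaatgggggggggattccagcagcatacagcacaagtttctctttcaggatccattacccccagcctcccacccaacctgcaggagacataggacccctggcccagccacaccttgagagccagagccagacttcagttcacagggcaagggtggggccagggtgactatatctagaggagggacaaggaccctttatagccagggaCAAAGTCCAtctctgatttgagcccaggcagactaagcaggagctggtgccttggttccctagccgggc
Slc3a1 (chr17:85028097-85028396, plus strand): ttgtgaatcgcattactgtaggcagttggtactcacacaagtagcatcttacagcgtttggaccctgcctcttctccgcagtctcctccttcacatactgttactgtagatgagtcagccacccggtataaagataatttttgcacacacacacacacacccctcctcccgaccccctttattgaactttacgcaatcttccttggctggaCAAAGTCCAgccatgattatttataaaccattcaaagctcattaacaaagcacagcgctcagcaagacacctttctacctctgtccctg
Cyp2c65 (chr19:39060756-39061055, plus strand): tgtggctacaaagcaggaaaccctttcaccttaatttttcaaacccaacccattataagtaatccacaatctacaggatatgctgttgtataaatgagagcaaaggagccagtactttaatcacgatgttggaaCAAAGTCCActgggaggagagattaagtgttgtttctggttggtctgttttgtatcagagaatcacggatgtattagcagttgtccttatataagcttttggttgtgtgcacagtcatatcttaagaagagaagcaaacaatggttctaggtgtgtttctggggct

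Mucosal defence genes were the list with the largest share of calls. Of 21 tested, 8 were higher and 1 was lower, 42.9% against 2.57% of all genes, and the median was log2 0.49. Members of this list were chosen with earlier results of these data known, so its share and rank are partly built in. Duox2, the oxidase that releases hydrogen peroxide at the luminal surface (chromosome 2, 122280437 to 122298165), held 39.6, 44.4, 48.8, 50 and 52.4 CPM in control libraries. Obese libraries held 53.8, 60.8, 85.5, 86.8 and 88.2 CPM and formerly obese libraries 49.1, 61, 74.7, 75.2 and 77.4 CPM, of which 1 lay in the control range (edgeR log2 fold change 0.60, SE 0.13, adjusted p = 0.051). Its maturation partner Duoxa2, the neighbouring gene, rose by log2 0.50. Nos2, inducible nitric oxide synthase, rose by log2 1.15 (SE 0.33, edgeR adjusted p = 0.108) from a low level, with 0.372, 0.515, 0.589, 0.739 and 1.37 CPM in control libraries and 0.752, 1.47 and 2.88 CPM as lowest, median and highest of the others. Slpi, a secreted protease inhibitor, held 0.677, 0.851, 1.18, 1.25 and 1.61 CPM in control libraries and 1.19, 2.1 and 4.15 CPM in the others in the same order (edgeR log2 fold change 1.04, SE 0.29, adjusted p = 0.0971). Pla2g2a rose by log2 0.67, Trim40, an epithelial ubiquitin ligase, by 0.49, and Ptk6, an epithelial tyrosine kinase, by 0.43. Whether Pla2g2a RNA yields active enzyme in these mice was not tested. Wfdc2, a secreted protein with a whey acidic protein domain like that of Slpi, fell by 0.44 on the log2 scale, from 399 ± 56.6 CPM to 312 ± 45.6 in the obese and 277 ± 41.2 CPM in the formerly obese group (SD, n = 5). Reg3b (log2 1.85) and Reg3g (log2 1.73), antimicrobial lectins, did not pass the test. Lyz1, a lysozyme of Paneth cells that is close in sequence to Lyz2, was high in obese mice only, with 2.08 to 4.42 CPM there, 0.496 to 1.18 in control and 0.291 to 1.64 in formerly obese libraries, and it differed between the groups with a high-fat history by -1.81 (95% interval -2.55 to -1.07, edgeR adjusted p = 0.0468). Without control replicate 2 Slpi lost its call (log2 0.96), and Duoxa2 (log2 0.46 to 0.51) and Nos2 (log2 0.98 to 1.09) lost theirs without control replicates 2, 3 or 5. The call of Lyz1 was lost without control replicates 3, 4 or 5, obese replicates 3, 4 or 5 or formerly obese replicates 4 or 5 (log2 0.89 to 1.05), with the replicate block (log2 0.97), with thinned counts (log2 1.03) and with 1 pooled group (log2 1.30).

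Complement C3, the central complement protein, had the largest rise among called genes with a mean of at least 50 counts, at log2 1.29 (SE 0.42, edgeR adjusted p = 0.156). Its libraries overlapped widely, with 2.75, 2.95, 5.05, 9.91 and 14.1 CPM in control, 5.44 to 25.8 in obese and 7.96 to 26.8 CPM in formerly obese libraries. Genes of antigen display on MHC class II had no call. All 7 tested were above 0, at a median of log2 0.70 for history, but their medians were -0.10 in obese and 1.54 in the formerly obese group, and their summed CPM ran from 21.9 to 129 in control, 33.8 to 147 in obese and 69.7 to 509 in formerly obese libraries. At an unadjusted p under 0.05 there were 0 of these 7. Among 33 interferon-stimulated genes, Oasl1, an antiviral protein, rose by log2 0.36 and Gm14446, an entry of the Ifit family, by 0.48, and 29 of 33 were above 0 (median log2 0.12). T cell markers, 12 tested with 0 called and 0 at an unadjusted p under 0.05, had a median of log2 0.30 and a summed CPM of 29.4 to 65.3 in control, 38.1 to 91.9 in obese and 28.6 to 81 in formerly obese libraries. The 8 macrophage and dendritic cell markers tested (0 called, 0 at an unadjusted p under 0.05) summed to 54.4 to 61.2 CPM in control, 62 to 68.6 in obese and 51.4 to 63.1 in formerly obese libraries. The part of these cells in the defence genes was not tested. C3 lost its call without control replicates 1, 2 or 4, obese replicates 3 or 4 or formerly obese replicates 3 or 4 (log2 1.09 to 1.21).

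Chaperones of the cytosol and of the endoplasmic reticulum lay mostly above 0, with few calls. Of 21 heat shock chaperones, 2 were higher (9.52%, against 1.3% of all genes, median log2 0.09), and of 20 genes of endoplasmic reticulum stress 3 were higher (15%, median log2 0.12), while 17 and 18 of them, respectively, lay above 0. Chordc1, a partner of HSP90 (chromosome 9, 18292267 to 18314000), held 41.1, 43.2, 44.6, 45.7 and 47.3 CPM in control libraries. It held 49.6, 49.7, 53.8, 56.2 and 58 CPM in obese and 49.1, 51.8, 58.5, 63.3 and 63.4 CPM in formerly obese libraries, all above the controls (edgeR log2 fold change 0.32, SE 0.06, adjusted p = 0.0401). Hsph1, which recharges HSP70 (chromosome 5, 149616845 to 149636315), rose by log2 0.66 (SE 0.15, edgeR adjusted p = 0.0586), with 35.6 to 45.6 CPM in control, 48.6 to 74.9 in obese and 41.2 to 88.3 CPM in formerly obese libraries. The inducible HSP70 genes Hspa1a (log2 -0.75) and Hspa1b (log2 -0.18) did not pass the test. In the endoplasmic reticulum, Hspa5, the chaperone BiP, rose from 454 ± 67.3 CPM to 551 ± 32.2 in the obese and 601 ± 126 CPM in the formerly obese group (SD, n = 5; log2 fold change 0.34), Hyou1 by log2 0.31 and Creld2 by 0.27. Hspa5 lost its call without control replicates 2 or 5 (log2 0.27 to 0.31), Hyou1 without control replicates 1, 2 or 5 (log2 0.26 to 0.31), and Creld2 without control replicates 2 or 5, obese replicate 3 or formerly obese replicates 2 or 4 (log2 0.24 to 0.26).

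The heat shock element, the sequence bound by heat shock factors, was searched as GAANNTTC, which reads the same on both strands. It stood in the promoters of 16 of 133 higher genes (12%), 6 of 127 lower genes (4.72%), 723 of 10355 tested genes (6.98%) and 2442 of 27025 genes of the table (9.04%). The shares of the E-box CACGTG, bound by clock and MYC factors, were 13.5% of higher, 13.4% of lower and 11.7% of tested genes (8.09% of the table), and those of the cAMP response element TGACGTCA 2.26%, 2.36% and 3.55% (2.03% of the table). The promoters of Chordc1 and Hsph1, the called heat shock chaperones, are printed because their heat shock elements lie close to an annotated start, at bases -4 and 7 in Chordc1 and at base 42 in Hsph1. From another RefSeq start of Hsph1, not printed, the element is at base 21 and the E-box at base -19. The promoters of Hspa5 and Creld2 do not hold these letters. The element is in capitals, as is an E-box at base 3 of Hsph1 that does not overlap it:
Chordc1 (chr9:18292017-18292316, plus strand): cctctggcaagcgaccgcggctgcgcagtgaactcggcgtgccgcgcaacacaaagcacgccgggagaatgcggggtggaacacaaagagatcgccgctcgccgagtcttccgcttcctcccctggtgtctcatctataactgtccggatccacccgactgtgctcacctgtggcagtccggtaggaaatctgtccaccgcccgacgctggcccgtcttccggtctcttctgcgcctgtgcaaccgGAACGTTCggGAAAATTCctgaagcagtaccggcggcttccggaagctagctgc
Hsph1 (chr5:149636287-149636586, minus strand): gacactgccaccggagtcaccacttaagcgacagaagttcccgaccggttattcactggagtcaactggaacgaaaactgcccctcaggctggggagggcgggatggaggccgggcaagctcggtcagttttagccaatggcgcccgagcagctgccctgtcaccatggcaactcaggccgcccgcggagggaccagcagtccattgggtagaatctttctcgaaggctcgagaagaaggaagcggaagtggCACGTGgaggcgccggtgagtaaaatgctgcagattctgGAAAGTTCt

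Immediate early genes, which cells switch on within minutes of a stimulus, were called in the lower direction alone. Of 27 tested, 7 were lower and 0 higher, 25.9% against 2.57% of all genes, with a median of log2 -0.11. Members of this list were likewise chosen with earlier results of these data known. Nr4a1, a nuclear receptor of this class (chromosome 15, 101266846 to 101274794), held 14.8, 17.3, 19.3, 21.2 and 29 CPM in control libraries. Obese libraries held 11.6, 12.6, 14.1, 14.3 and 17.2 CPM and formerly obese libraries 5.36, 9.98, 10.8, 11.4 and 12.7 CPM, so that 1 of the 10 was above the lowest control (edgeR log2 fold change -0.78, SE 0.16, adjusted p = 0.0495). Klf2, a transcription factor, fell by 0.68 on the log2 scale, from 7.4 ± 2.86 CPM to 4.95 ± 1.39 in the obese and 4.29 ± 0.667 CPM in the formerly obese group (SD, n = 5). Fosb was at 72.3 to 150.2 CPM in control, 83.8 to 119 in obese and 42.7 to 95.6 CPM in formerly obese libraries, and was called between the groups with a high-fat history (log2 -0.66, 95% interval -1.09 to -0.23). Fos fell by 0.30, Csrnp1 by 0.36, and the kinases Plk2 and Plk3 by 0.28 each. Egr1 (log2 -0.11), Jun (log2 -0.04) and Myc (log2 0.0041) did not pass the test. The medians of the list were -0.02 in the obese and -0.30 in the formerly obese group. Genes of signalling feedback had 3 lower and 0 higher of 26 (median log2 -0.05). Spry1, a brake on receptor tyrosine kinases (chromosome 3, 37639950 to 37644599), held 12.1, 13.7, 14.3, 14.4 and 15.8 CPM in control libraries and 9.78, 10.7 and 12.5 CPM as lowest, median and highest of the others (edgeR log2 fold change -0.38, SE 0.08, adjusted p = 0.0495). Cish, a brake on cytokine signalling, was below every control library in all 10 others, with 23.4 to 27.6 CPM in control and 10.7 to 21.1 CPM in the others (log2 fold change -0.46, SE 0.11). Dusp1, a phosphatase of MAP kinases, fell by 0.46. Klf2 lost its call without control replicate 5 (log2 -0.43), Fosb without control replicates 1 or 5 (log2 -0.52 to -0.47), Plk2 without control replicates 1 or 5, obese replicate 5 or formerly obese replicates 1 or 4 (log2 -0.26 to -0.25), Fos without control replicates 1, 3 or 5, obese replicate 1 or formerly obese replicates 1 or 4 (log2 -0.30 to -0.23), Plk3 without control replicates 1, 3 or 5, obese replicates 1, 4 or 5 or formerly obese replicates 2 or 4 (log2 -0.27 to -0.22), and Dusp1 without control replicates 1, 2, 3 or 5, obese replicates 1, 2, 3 or 4 or formerly obese replicates 1, 3 or 5 (log2 -0.47 to -0.39). Calls were also lost for Dusp1 with DESeq2 (log2 -0.46) and with 1 pooled group (log2 -0.45), for Fosb with 1 pooled group (log2 -0.55) and for Plk3 with thinned counts (log2 -0.28).

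**Figure D3:**
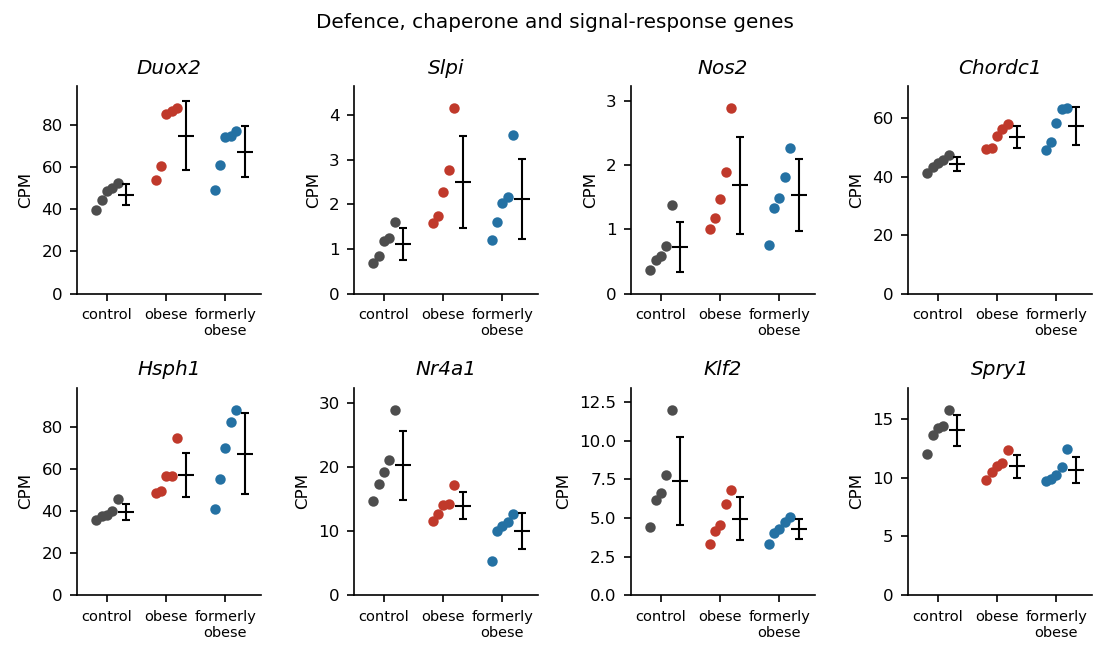
CPM in each library (points) with the group mean and SD (bars) for Duox2, Slpi, Nos2, Chordc1, Hsph1, Nr4a1, Klf2 and Spry1 in control, obese and formerly obese mice, 5 libraries each, every axis from 0. Chordc1 has no overlap between control libraries (41.1 to 47.3 CPM) and the others (49.1 to 63.4 CPM), while Slpi, Nos2 and Klf2 overlap.

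Genes that answer glucocorticoids split. Of 17 tested, Fkbp5, a chaperone of the glucocorticoid receptor, and Sgk1, a kinase that raises sodium uptake, were higher, and Zbtb16 and Dusp1 were lower (median log2 0.05). Sgk1 rose from 156 ± 24.6 CPM to 236 ± 48.9 in the obese and 206 ± 27.8 CPM in the formerly obese group (SD, n = 5; log2 fold change 0.50), and it was the only call among 25 genes of ion and water transport. Zbtb16, a transcription factor, fell by 0.50 on the log2 scale, with 4.61 to 6.42 CPM in control libraries and 2.65 to 4.76 CPM in the others. Fkbp5 had log2 0.13 in the obese and 0.45 in the formerly obese group and was called between them. Of 18 clock genes 1 was called, Ccrn4l, which encodes the phosphatase nocturnin (chromosome 3, 51224447 to 51251654). Ccrn4l held 39.6 to 49.7 CPM in control, 42.6 to 60.1 in obese and 58.6 to 73.3 CPM in formerly obese libraries, an increase of log2 0.23 and 0.58, and the groups with a high-fat history differed by 0.34 (95% interval 0.17 to 0.52, edgeR adjusted p = 0.079). The call of Fkbp5 was lost without control replicates 2 or 5, obese replicates 3 or 4 or formerly obese replicate 4 (log2 0.24 to 0.28) and with 1 pooled group (log2 0.30).

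Growth signalling genes changed singly, and genes of cell division did not pass the test. None of the 29 proliferation genes was called by edgeR (median log2 0.03, 0 at an unadjusted p under 0.05). Of 22 Wnt targets and stem cell genes, Ccnd2 and Fzd6 were lower and Prom1 was higher (median log2 -0.04). Ccnd2, which encodes cyclin D2 (chromosome 6, 127125709 to 127151048), held 294, 319.8, 342, 343 and 355 CPM in control libraries and 219 to 244 in obese libraries. Formerly obese libraries held 271, 283, 294, 295 and 357 CPM, between obese and control libraries for the most part, and the groups with a high-fat history differed by 0.38 (95% interval 0.24 to 0.53, edgeR adjusted p = 0.0297). Fzd6, a Wnt receptor, was even, with 17.7 to 24 CPM in control libraries and 13.3, 15.5 and 19.8 CPM as lowest, median and highest of the others. Prom1, a membrane protein of progenitor cells, held 339 to 408 CPM in control, 364 to 473 in obese and 459 to 557 CPM in formerly obese libraries. Lifr, the receptor of leukaemia inhibitory factor (chromosome 15, 7129572 to 7197489), held 8.99, 9.29, 9.95, 10.7 and 11.5 CPM in control, 4.19 to 6.92 in obese and 6.03 to 9.56 CPM in formerly obese libraries (edgeR log2 fold change -0.64, SE 0.12, adjusted p = 0.0307). In obese mice Lifr stood at log2 -0.85 and in formerly obese mice at -0.43.

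Posterior Hox genes, which mark the tail end of the gut axis, were called in the lower direction alone. Of 8 tested, 2 were lower (25%, against 1.27% of all genes) and all 8 had a value below 0 (median log2 -0.25), against medians of -0.12 in the obese and -0.41 in the formerly obese group. Of 17 anterior Hox genes edgeR called 0, with 3 at an unadjusted p under 0.05 (median log2 0.11). Hoxd13, the last gene of its cluster (chromosome 2, 74668310 to 74671599), held 62.3, 68.1, 69.2, 76.4 and 79.6 CPM in control libraries, 48.2 to 72.9 in obese and 39 to 58.6 CPM in formerly obese libraries (edgeR log2 fold change -0.41, SE 0.11, adjusted p = 0.0753). Its neighbour Hoxd12 fell by 0.61 on the log2 scale from 4.18 ± 1.2 CPM (SD, n = 5). The epithelium came from the entire colon, and the share of each stretch of colon in a library is not in the labels, so a shift along the gut and a change within cells cannot be told apart. Hoxd12 lost its call without control replicates 4 or 5 (log2 -0.53 to -0.50) and under the replicate block (log2 -0.59), which leaves the call of Hoxd13.

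**Figure D4:**
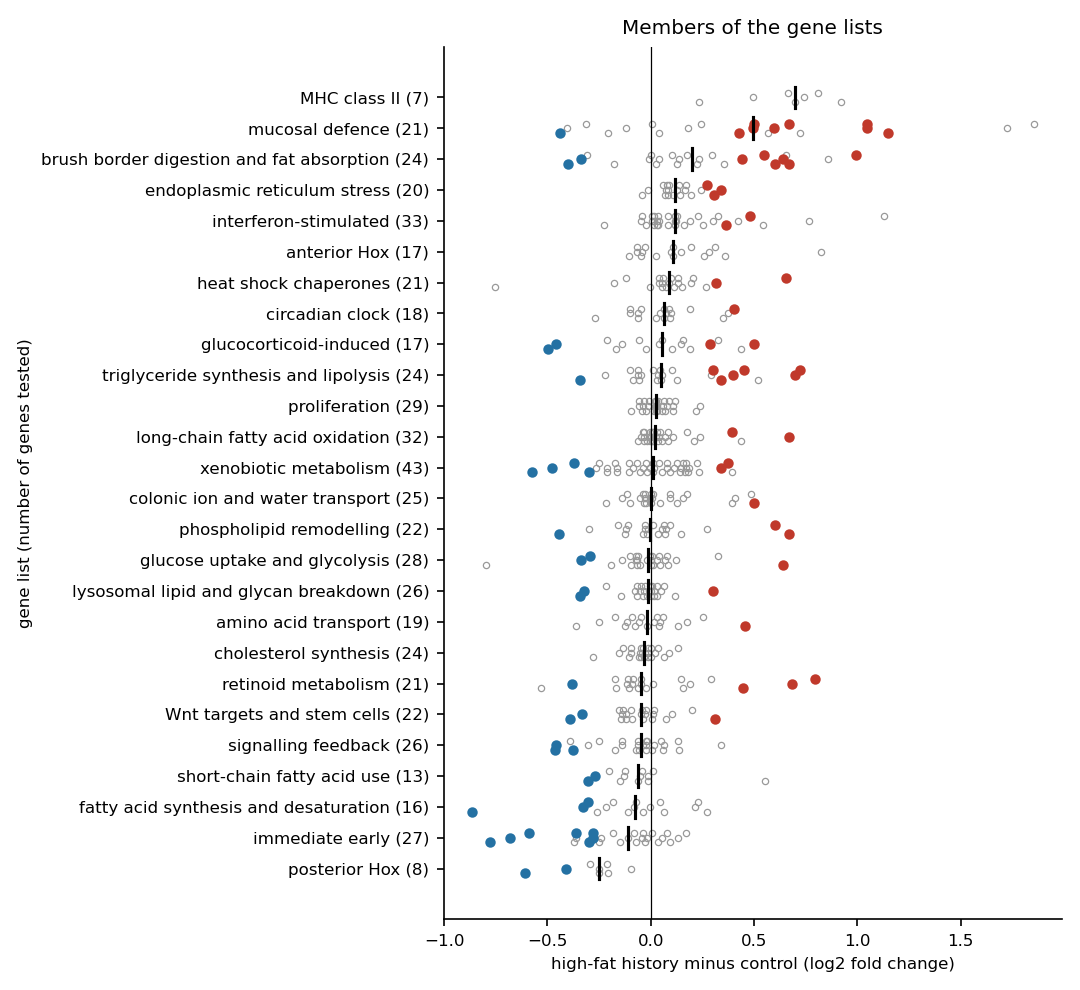
Log2 fold change for high-fat history (horizontal axis) of each tested member of 26 gene lists (one row per list, with the number tested), as red or blue points for genes called higher or lower, open circles for genes not called, and a black bar for the median of the list. The medians farthest out are those of MHC class II (log2 0.70, 0 calls of 7) and posterior Hox genes (log2 -0.25, 2 lower of 8). Mucosal defence (8 higher, 1 lower of 21) and brush border genes (6 higher, 2 lower of 24) also lie to the right. Immediate early genes (7 lower of 27) also lie to the left, while cholesterol synthesis and proliferation genes sit around 0.

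The other genes with the smallest p-values came from signalling, purine breakdown, glycosylation and the cell surface. Syk, a tyrosine kinase (chromosome 13, 52583437 to 52648792), held 52.8, 57.1, 57.5, 59.4 and 62.1 CPM in control libraries. All 10 others were above these, at 62.7, 70.3, 72.3, 74.3 and 75.5 CPM in obese and 71.1, 72.1, 72.8, 73.5 and 79.8 CPM in formerly obese libraries (edgeR log2 fold change 0.33, SE 0.05, adjusted p = 0.0167). The difference between the groups was 0.06 (95% interval -0.06 to 0.17). Gda, the guanine deaminase of purine breakdown (chromosome 19, 21391307 to 21472661), held 97.7, 99.2, 103, 110.3 and 116 CPM in control libraries and 119.8, 133 and 160.3 CPM as lowest, median and highest of the others, with no overlap (log2 fold change 0.35, SE 0.06). Gcnt4, an enzyme of mucin-type glycans (chromosome 13, 96924689 to 96950914), rose by log2 0.53, with 13.3 to 19.7 CPM in control libraries and 19.3 to 27.5 CPM in the others, 1 of which lay in the control range. Pcsk5, a convertase of secreted proteins, was at 52.5 to 60.6 CPM in control libraries and at 59.9 to 78.8 CPM in the others, and its difference between the groups with a high-fat history was 0.0017 (95% interval -0.14 to 0.14). Btnl6, a butyrophilin-like gene, rose by log2 0.31, Stk17b, a kinase, by 0.28, and Ptprh, a receptor phosphatase of the gut, by 0.30, each with the higher mean in formerly obese mice and the difference between the groups not called. The call of Stk17b was lost without control replicates 2 or 4 or formerly obese replicate 2 (log2 0.25 to 0.26) and with GC trends removed (log2 0.25), and that of Ptprh without control replicate 1 (log2 0.25).

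Among the lower genes were surface and secreted proteins. Tmeff1, a membrane protein with EGF-like domains (chromosome 4, 48585193 to 48663131), held 17.7, 18.6, 19, 21.4 and 22.3 CPM in control libraries, and all others were lower, at 11.8, 13.2, 13.5, 14.8 and 16.6 CPM in obese and 13.2, 14.1, 14.3, 15.8 and 17.1 CPM in formerly obese libraries (edgeR log2 fold change -0.46, SE 0.08, adjusted p = 0.0307). Col8a1, a collagen chain (chromosome 16, 57624256 to 57754737), fell by 0.73 on the log2 scale, from 29.4 ± 8.34 CPM to 17.3 ± 1.5 in the obese and 18.1 ± 3.67 CPM in the formerly obese group (SD, n = 5). Fibroblast markers, which include other collagens, lay on the other side. Of 9 tested, 8 were above 0 and Col6a1 was called higher (log2 1.61, from 0.339 ± 0.257 CPM), with 4 at an unadjusted p under 0.05, a list median of log2 0.85 and a summed CPM of 17.7 to 34.4 in control, 29.5 to 42.6 in obese and 28 to 57.6 in formerly obese libraries. The part of fibroblasts in these values was not tested, and Col6a1 lost its call without control replicates 1, 2 or 4 (log2 1.34 to 1.57) and with DESeq2 (log2 1.62). Itih2, a protein that binds hyaluronan in the matrix, held 21.6 to 26.9 CPM in control, 18.3 to 23 in obese and 14.2 to 18.1 CPM in formerly obese libraries. Lrfn4, a leucine-rich repeat protein of the cell surface, held 27.6 to 33.9 CPM in control, 26.4 to 30.6 in obese and 19.8 to 22.1 CPM in formerly obese libraries, which lay below all the others. Its difference between the groups was -0.43 (95% interval -0.56 to -0.30, edgeR adjusted p = 0.0121).

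The largest folds with a mean of at least 50 counts belonged, besides C3, to a metal transporter, a glycolipid enzyme, a receptor and a kinase. Slc30a10, the manganese exporter of the cell surface, rose by log2 1.19 (SE 0.29, edgeR adjusted p = 0.0651), with 3.88, 5.77, 5.83, 7.27 and 8.78 CPM in control, 10.1 to 22.8 in obese and 5.94 to 23.6 CPM in formerly obese libraries. Ugt8a, which makes galactosylceramide, rose by log2 1.2, with 0.524 to 4.68 CPM in control libraries and 2.38, 5.2 and 8.97 CPM as lowest, median and highest of the others. Gpr110, an adhesion receptor (chromosome 17, 43270347 to 43324406), held 10.2, 14.4, 15.7, 19.6 and 20.5 CPM in control, 5.13 to 13.1 in obese and 5.71 to 7.86 CPM in formerly obese libraries (edgeR log2 fold change -0.95, SE 0.19, adjusted p = 0.0403). Cdk14, a cyclin-dependent kinase, fell by 1.03 on the log2 scale and was even, at log2 -1.08 in the obese and -0.99 in the formerly obese group. Ugt8a lost its call without control replicates 1, 2 or 3, obese replicates 3 or 4 or formerly obese replicates 1 or 3 (log2 0.95 to 1.15).

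A mean over both groups also reached genes that neither group reached alone. There were 36 of these, 15 higher and 21 lower, and the count was 21 without obese replicate 2 and 57, 69 and 72 without obese replicates 1, 3 and 5. The higher ones with the smallest p were Slc27a2, described above, Nckap5 (log2 0.57) and H2-Q1, a class I histocompatibility gene (log2 0.43). H2-Q1 held 9.82, 10.2, 10.3, 11.1 and 11.6 CPM in control libraries, 8.98 to 18.1 in obese and 11 to 16.9 CPM in formerly obese libraries. On the lower side were Zfp775, a zinc finger gene (log2 -0.29), Mageh1 (log2 -0.33) and Arsg, a lysosomal sulfatase (log2 -0.35). Among 26 genes of lysosomal lipid and glycan breakdown, Gm2a, the activator protein of ganglioside breakdown, was lower (log2 -0.34) and Lipa was higher. Of the cell type lists not yet given, goblet cell markers had 1 call of 15, Spink4 (log2 0.31), which is also among the 4 tested markers of deep crypt secretory cells. Enteroendocrine markers (16 tested, median log2 0.05, 0 at an unadjusted p under 0.05), tuft cell markers (11 tested, all above 0, median log2 0.21, 3 at an unadjusted p under 0.05) and stem cell markers (6 tested, median log2 -0.02, 0 at an unadjusted p under 0.05) had 0 calls in edgeR. Of smooth muscle, endothelial, neuron and glia and erythrocyte markers 2, 2, 3 and 1 were tested, with 0 calls in edgeR and 1, 1, 0 and 0 at an unadjusted p under 0.05, and of 3 fat cell markers tested Cidec was called. The calls of Zfp775 (control replicates 1, 2 or 5, log2 -0.28 to -0.25), Mageh1 (control replicates 1 or 5, log2 -0.32 to -0.27), Arsg (control replicates 1 or 3, log2 -0.34 to -0.28) and Spink4 (control replicates 1 or 2, log2 0.24 to 0.27) were lost without the libraries in brackets. Those of Nckap5 were lost without control replicates 2, 3 or 5, obese replicates 3 or 4 or formerly obese replicates 2 or 4 (log2 0.48 to 0.57), and those of H2-Q1 without control replicates 1, 2, 3 or 5, obese replicates 1, 3 or 5 or formerly obese replicates 2 or 4 (log2 0.38 to 0.44) and with the replicate block (log2 0.42). The call of Mageh1 was also lost with thinned counts (log2 -0.29).

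Slc16a12 shows what the mean over groups can hide. Its control libraries held 9.07, 9.11, 9.41, 9.42 and 10.4 CPM and its obese libraries 8.8, 9.01, 10.1, 10.9 and 11.2 CPM, in the same range. Formerly obese libraries held 3.96, 5.32, 5.64, 5.65 and 5.71 CPM, below all others. The log2 fold change was 0.08 in the obese and -0.85 in the formerly obese group, a difference of -0.93 (95% interval -1.15 to -0.70, edgeR adjusted p = 0.000747), and the call for history (log2 -0.39) rests on formerly obese mice and was lost with 1 pooled group (log2 -0.32).

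**Figure D5:**
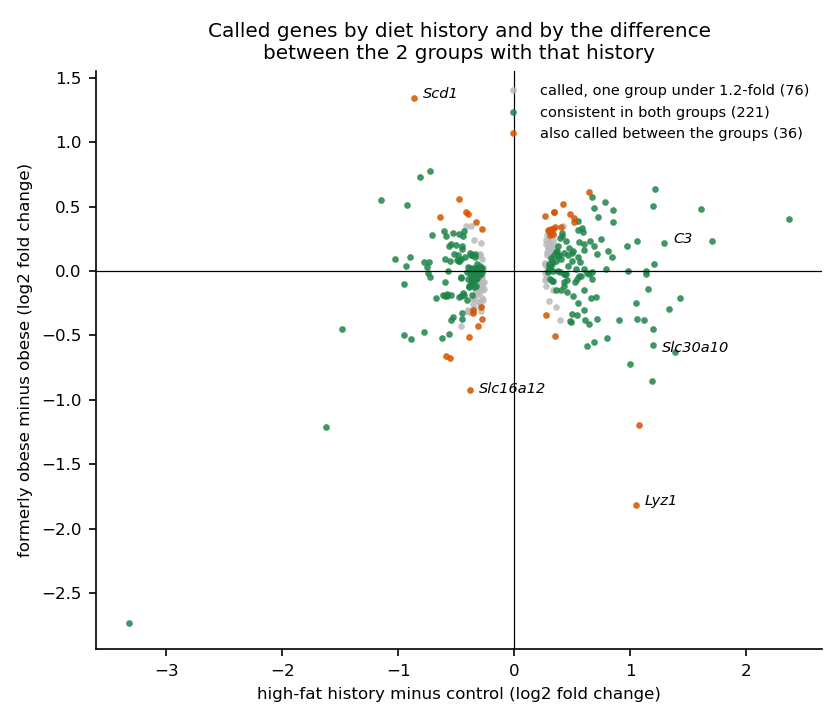
Each of the 333 called genes by its log2 fold change for high-fat history (horizontal axis) and by the log2 difference of formerly obese minus obese mice (vertical axis), green for the 221 even genes (named consistent in both groups in the key), orange for the 36 also called between the groups and grey for the 76 with one group under 1.2-fold. Most green and grey points lie near 0 on the vertical axis, and Scd1 (1.34), Slc16a12 (-0.93) and Lyz1 (-1.81) lie far from it.

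DNA methylation was set beside the called genes. The deposited table of regions that differed in methylation between obese and control mice held 8199, 4123 with more and 4076 with less methylation in obese mice. Within 10 kb of the gene or inside it, 75 of the 333 called genes (22.5%, Wilson 95% interval 18.4% to 27.3%) and 2667 of 12961 tested genes (20.6%) had such a region. Regions of higher methylation lay at 28 of 164 lower genes (17.1%, 12.1% to 23.6%), at 20 of 169 higher genes (11.8%, 7.79% to 17.6%) and at 11.3% of all tested genes, and regions of lower methylation at 11%, 10.7% and 11.7%. Intervals cover counting over genes only. Median gene lengths were 21.6 kb for lower, 23.6 kb for higher and 21.3 kb for all tested genes. Among the named genes, a region of 7 bases with more methylation in obese mice lay 832 bases upstream of the start of Scd1 (mm10, chromosome 19, 44408541 to 44408547), and one of 52 bases with less methylation lay 1152 bases upstream of Dgat2 (chromosome 7, 99183865 to 99183916). A region with more methylation lay 5061 bases before Hoxd13 (chromosome 2, 74663245 to 74663249). The region list holds no formerly obese mice. One called gene, Pfkfb3, had bisulfite amplicons within 10 kb, with 17 CpGs between 11474389 and 11529178 on chromosome 2. Their mean methylation was 84.9% ± 0.721 in control, 85% ± 0.638 in the obese and 84.5% ± 0.525 in the formerly obese group (SD, n = 5), and the 3 ranges overlapped (83.96% to 85.8%, 84.3% to 85.8% and 84.1% to 85.4%).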

How the data were processed

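Colonic epithelium from the entire colon of 15 mice was stripped with EDTA, and polyadenylated RNA was sequenced from stranded libraries as paired 50-base reads. Per the study's methods and the submitters' processing notes, the authors mapped reads to mm10 with TopHat2 2.0.4 and counted them per gene with HTSeq, and the deposited values are raw read counts. The annotation release and the strand setting of the counting are not given in the sources used here. The deposited amplicon file holds methylation at CpGs as a fraction from 0 to 1 (Bismark), printed here as percent, with no depth per CpG. The region table gives positions and direction for obese against control mice. Tables of the authors' own DESeq2 1.2.10 comparisons (log2 fold changes, p-values and adjusted p-values) were not used. Per-sample columns left unused numbered 0.

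Counts were fitted in R 4.3.3 with edgeR 4.0.16 (limma 3.58.1): filterByExpr kept 12961 of 24918 entries, libraries were scaled by TMM, and 1 quasi-likelihood fit of all 15 libraries gave the mean of both groups with a high-fat history minus control, each group minus control, and formerly obese minus obese, with Benjamini-Hochberg adjustment over all genes tested. CPM are counts per 1e6 of the TMM-scaled total. Depth was 15230391 to 22762095 counts. The closest pair of replicates differed by a chi-square of 4.71 per degree of freedom, and none was treated as a repeat. On simulated counts for this comparison (12873 genes, 197 changed), 191 genes were called, 31 of them unchanged; 71 of 99 changes of log2 0.4 and 89 of 98 of log2 0.8 were recovered. Intervals of shares are Wilson 95% intervals over genes and cover counting error only.

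Gene lists (41, with 784 genes, 776 matched by symbol, 3 by a RefSeq synonym and 5 not matched; 665 tested) and members were chosen with earlier results of these data known. Genes were named by rule: with a mean of at least 50 counts, the 12 higher and 12 lower with the smallest p and the 3 with the largest fold each way; every called member of a list; the 4 with the smallest p between the groups with a high-fat history; and 3 each way called in neither single comparison. Alternatives were upper-quartile scaling, DESeq2 1.42.0, other filters, an adjusted p under 0.05, the replicate number as a block, removal of each library's GC trend (content known for 99.9% of genes), thinned counts, 1 pooled group, and each library left out. Some called genes are not reported here. Files were joined in Python 3.11.15 with pandas 2.3.3 and scipy 1.17.1.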

Additional observations from a re-analysis of the deposited data

Results flagged for a closer look

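For the 24 genes named for the smallest p-values and for total counts, 75 groups of 5 libraries were looked at, and in 6 the highest or lowest library stood apart from the rest, where chance gives about 1 in 20. Acss2 was at 272 CPM in control replicate 2, with the other control libraries at 232 to 240.4. Scd1 was at 22.9 CPM in obese replicate 4 (others 17.8 to 18.7), and Col8a1 at 14.7 CPM in obese replicate 5 (others 17.4 to 18.3). Syk was at 79.8 CPM in formerly obese replicate 4 (others 71.1 to 73.5), Mgll at 50.7 CPM in formerly obese replicate 1 (others 36.2 to 37.1) and Ccnd2 at 357 CPM in formerly obese replicate 5 (others 271 to 294.5).

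For 13 named genes the effect differed between the groups, tested as formerly obese minus obese in edgeR with all genes adjusted together. Scd1 differed by log2 1.34 (adjusted p = 0.000747), Slc16a12 by -0.93 (adjusted p = 0.000747), Lrfn4 by -0.43 (adjusted p = 0.0121), Ccnd2 by 0.38 (adjusted p = 0.0297) and Lyz1 by -1.81 (adjusted p = 0.0468). Those at a higher adjusted p were Ccrn4l (0.34, adjusted p = 0.079), Prom1 (0.28, 0.10), Itih2 (-0.30, 0.109), Cyp2c65 (0.46, 0.121), Fosb (-0.66, 0.152), Gm14446 (0.44, 0.177), Fkbp5 (0.32, 0.177) and Lifr (0.41, 0.193).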

How the results depend on the processing

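The number of genes called for history, 333, was 333 with upper-quartile scaling, 347 with DESeq2 (303 of the 333 among them), 404 without a filter on low counts, 297 with at least 10 counts in every library, 338 with GC trends removed, 325 with thinned counts and 305 with 1 pooled group. With an adjusted p under 0.05 as the only cutoff there were 47 genes for history, 25 even across both groups, 25 between formerly obese and obese mice, 5 called in both and 2 in neither single comparison. Genes called in neither single comparison were 67 without the filter. Leaving out 1 library gave 188 (control replicate 2) to 459 (control replicate 4) genes for history, 111 (control replicate 2) to 293 even genes, 167 (formerly obese replicate 5) to 400 between the groups, with 195 without obese replicate 1 and 209 without obese replicate 2, 20 (formerly obese replicate 5) to 60 (control replicate 4) called in both, and 21 (obese replicate 2) to 72 (obese replicate 5) in neither. Genes whose libraries do not overlap, 59 with all libraries, numbered 63 to 192 with 1 left out. That rise is partly built in, since fewer values have to be cleared. The difference in library size, 1.53 in units of 1e6 counts, was 0.928 to 1.75 with 1 library left out. A distance of 50 kb in place of 10 kb raised the share of called genes with a methylation region from 22.5% to 46.5%, and that of all tested genes to 43.8%. Of the 99 named genes, 53 kept the call in every fit without a library, 51 kept it in those fits and in every other setting but an adjusted p under 0.05, and 0 changed direction in any setting. Of these calls 70 were lost at an adjusted p under 0.05, 8 with 1 pooled group, 5 with thinned counts, 4 with the replicate block, 3 with DESeq2, 2 with GC trends removed and 1 with upper-quartile scaling. Causes were not tested.

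Same-numbered libraries did not pair throughout: 5 of 15 pairs correlated above 0.1 (-0.23 to 0.33), and 6 libraries correlated best with their own number. Those 5 pairs were all of replicates 2 and 3, while every pair of replicates 1 and 5 was below 0. Pairing of some libraries is therefore not settled. With the replicate block, 357 genes were called for history (301 of the 333 among them) and 23 in neither single comparison.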
